A study of Rattus norvegicus with 12 samples.

Results

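The mitochondrial carrier family (Slc25) was examined in the liver of obese rats fed an oyster mushroom product, across 46 member genes out of 18166 genes measured on the arrays. A gene counted as a member where a transcript cluster, the array's unit for a gene, carried exactly 1 gene symbol of the form Slc25a followed by a number, or Ucp1, Ucp2 or Ucp3. For a gene with several clusters the one with the highest mean over all arrays was taken. A further 2 clusters, which carry the symbols Slc25a5 and Slc25a6 together, fell outside that rule and were not used here. RefSeq's table for the assembly GRCr8 holds all 46 by gene number, on 18 chromosomes.

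Slc25 proteins are the shuttles of the inner mitochondrial membrane, which is closed to most charged molecules. They exchange nucleotides, phosphate, carboxylic acids, amino acids, acylcarnitines, cofactors and metals between the cytosol and the matrix. The uncoupling protein Ucp1, of the same family, lets protons leak back. In hepatocytes Slc25 proteins connect the mitochondria with ureagenesis, gluconeogenesis, fatty acid oxidation, the export of citrate for lipid synthesis and the making of heme.

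The 12 arrays, Affymetrix Rat Gene 2.0 ST, each held liver RNA of 1 male obese Zucker rat, homozygous for fa, a defective allele of the leptin receptor gene. The PSC group of 6 rats had eaten a diet with 5% PSC, the labels' name for the supplement, and the control group of 6 rats a diet of like energy and nutrients without it. Feeding began at an age of 5 to 6 weeks and lasted 4 weeks with 12 rats per diet, and livers were taken on day 29. Random choice gave the 6 profiled rats of each diet. Each cage held a pair of rats, and any cage mates among those profiled would not be independent samples.

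Values are log2 signals, on which a difference of 1 is a doubling of signal. Array medians were 4.72 to 4.85 in PSC arrays and 4.71 to 4.78 in control arrays. The lowest correlation between any pair of arrays was 0.987. The number of arrays limits the precision. The tissue matched its label: 6 measured hepatocyte markers had mean log2 signals from 10.4 to 13.2, and their average per array was 11.9 to 12.1 in PSC arrays and 11.8 to 12.0 in control arrays. Some markers of other liver cells passed the test. Of 8 macrophage markers all had positive differences (PSC minus control), with a list median of 0.51 and 5 at an unadjusted p below 0.05 (limma). Of these 1, Cd163, rose past the adjusted threshold. The list average was 7.26 to 7.68 in PSC arrays and 6.29 to 7.35 in control arrays. Of 7 stellate cell markers 3 fell (Dcn, Col1a2 and Col3a1), and all 7 had negative differences, with a list median of -0.30. Their list average was 6.61 to 7.01 in PSC arrays and 6.94 to 7.24 in control arrays. Lymphocyte and bile duct markers had 1 gene each that passed (Nkg7 rose, Spp1 fell), of 6 and 5 measured. The bile duct markers had differences (PSC minus control) of both signs, 3 positive and 2 negative, with a list median of 0.04. These ran from -0.63 for Spp1 to 0.27 for Krt19, which did not pass. Of 3 endothelial markers 0 passed. The part of these cells in the results on the carriers was not tested, and in bulk tissue fewer cells of a type and less RNA per cell cannot be told apart.

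No carrier gene passed the test. Diets were compared by a linear model per gene (limma) with Benjamini-Hochberg adjustment over all 18166 genes, and 0 of 46 members had an adjusted p below 0.05, against 2.60% of all genes. At an unadjusted p below 0.05 there were 6 members, or 13.0%, where all genes gave 19.1%, so the family held no larger share than the array as a whole. Of these 6, 4 had higher values in PSC-fed rats and 2 lower, where 9.02% and 10.1% of all genes did. All 6 were among the 29 members brighter than the median gene. Of the 9083 genes of that brightness, 607 were higher and 1492 lower at the same unadjusted threshold. The median log2 fold change (PSC minus control) was 0.04 over the members and 0.01 over all genes, with 28 members above 0 and 18 below. Centring each array on its median moved the median of all genes to -0.03 and turned 7 of the members' small positive values negative. The median size of the difference, regardless of sign, was 0.10 in the members and 0.09 in all genes.

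How many members had narrow intervals of the difference in signal depended on the bound. Inside 1.2-fold in either direction lay the 95% intervals of 21 of 46 members (45.7%, against 47.3% of all genes), and those of 25 did not. The 95% interval of the difference lay inside 1.3-fold in either direction for 38 of 46 members (82.6%, against 79.0% of all genes) and inside 1.5-fold for 44 of 46 members (95.7%, against 95.5% of all genes). The 1.3-fold count was 24 of the 29 members brighter than the median gene and 14 of the 17 others. The intervals are per gene, not adjusted for their number, and concern the array signal, which in dim genes can understate a change of transcript. The 2 members whose intervals reached past 1.5-fold were Slc25a30 and Slc25a52, and both had a wide spread among rats of the same diet.

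**Figure D1:**
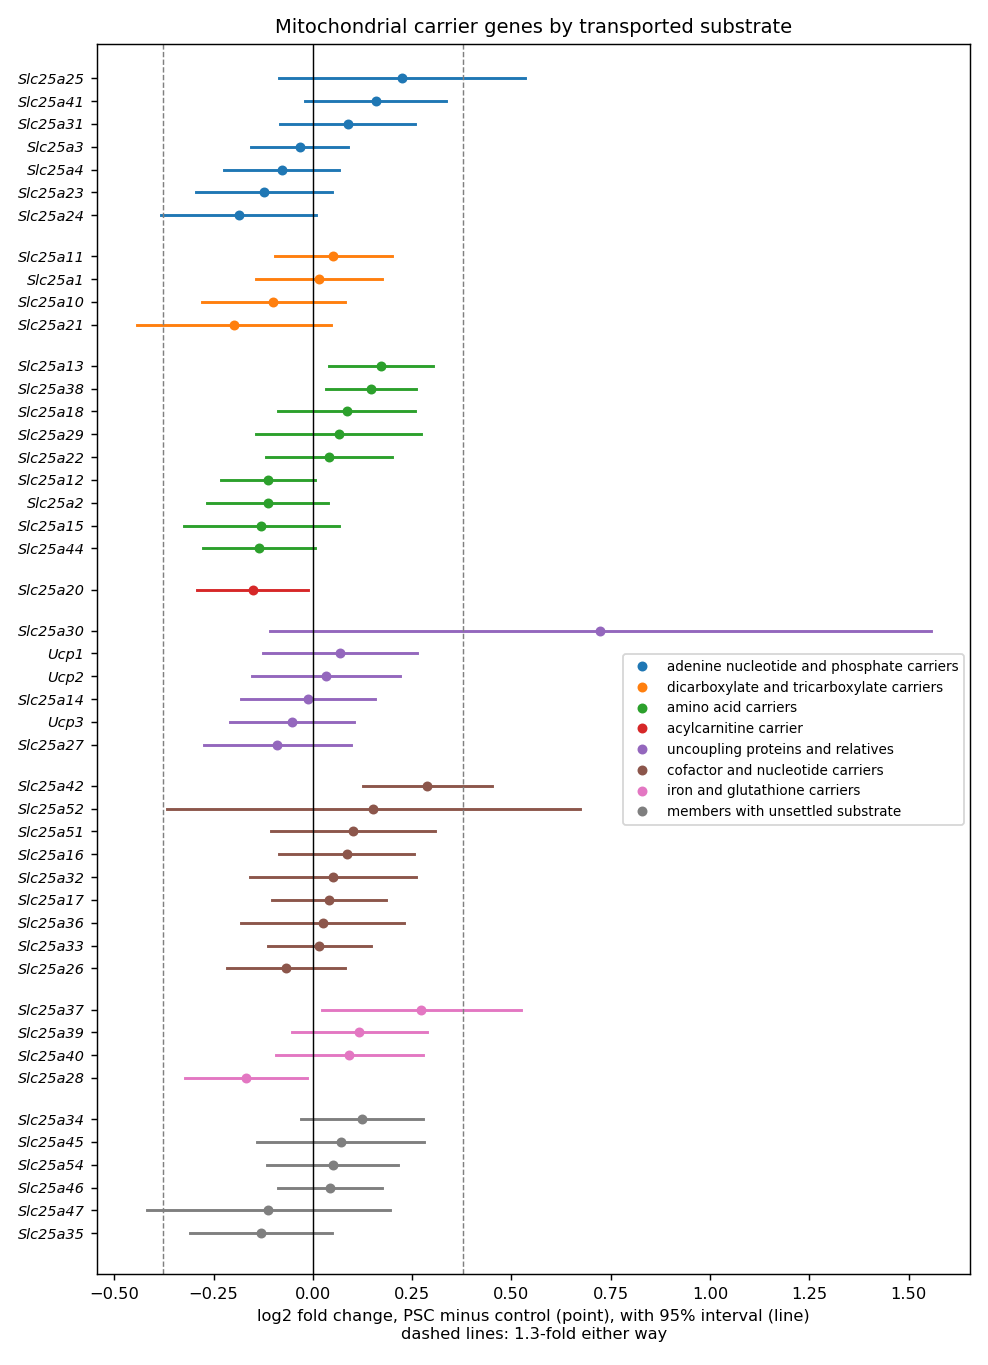
Log2 fold change (PSC minus control) of the 46 carrier genes, 1 row per gene, grouped by transported substrate. Points are the fitted differences, lines their 95% intervals (n = 6 per diet) and dashed lines mark 1.3-fold. Most intervals cover 0, and that of Slc25a30, at the far right with a point at 0.72, is the widest.

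Slc25a42, which brings coenzyme A into the matrix in exchange for adenine nucleotides, came nearest to the threshold. Its log2 signal was lowest at 7.12, with a median of 7.265 and a highest value of 7.59, in PSC arrays, against 6.88, 6.995 and 7.10 in control arrays. All 6 PSC arrays lay above every control. The log2 fold change was 0.29 (SE 0.08, 95% interval 0.13 to 0.45), a 1.22-fold higher signal, with an adjusted p of 0.0571 by limma. Its call depended on the processing: the adjusted p ran from 0.0273 to 0.130 over 21 alternative fits and was below 0.05 in 6 of them. These 6 were array weights (0.0387), cyclic loess (0.0322), a second quantile normalization (0.0340), a variance prior with trend (0.0342), a test of genes brighter than the median gene alone (0.0273), and the fit without PSC replicate 2 (0.0456). That array had the lowest weight of all 12 (0.54) and the lowest PSC value of Slc25a42 (7.12), so the fit with array weights also discounted it.

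Slc25a38, which imports glycine for the first step of heme synthesis, was the other member whose diets did not overlap. It had 7.02, 7.05 and 7.21 (lowest, median and highest log2 signal) in PSC arrays and 6.87, 6.95 and 6.98 in control arrays. The step between the diets was narrow, 0.15 (SE 0.05, adjusted p = 0.154), but so was the spread, since the pooled SD within diets of 0.06 was the smallest of the 46 members. Members without overlap were thus 2 of 46, or 4.35%, where all genes gave 2.19%, and 0.710% with the PSC arrays on the higher side. When each array was centred on its median, 0 members were without overlap.

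**Figure D2:**
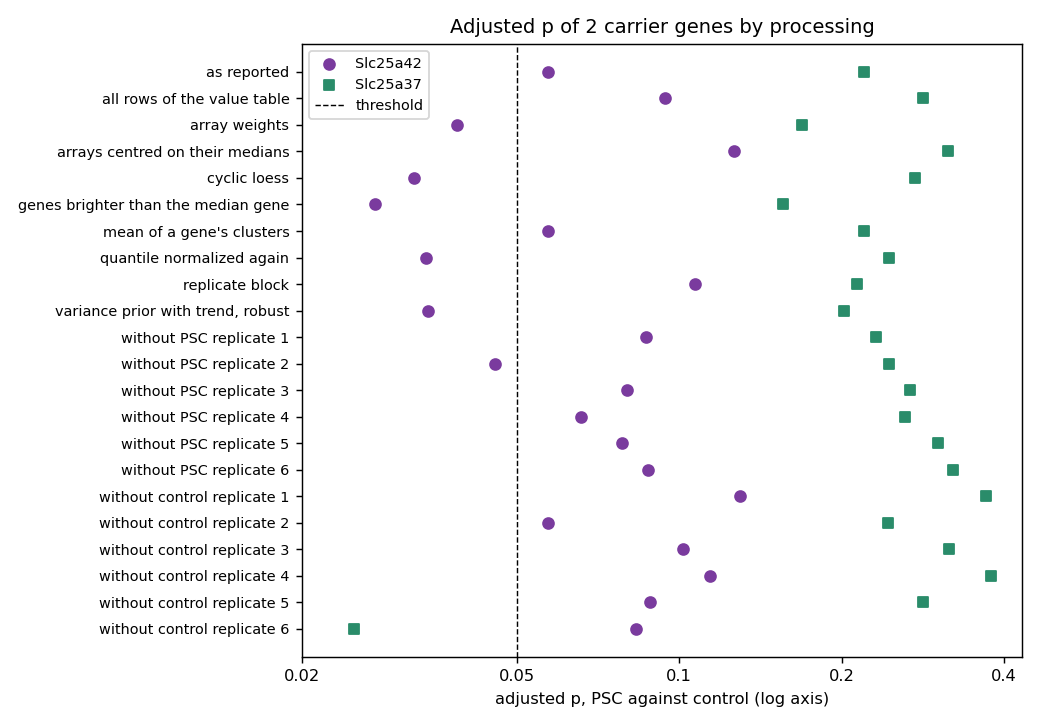
Adjusted p (limma, log axis) of Slc25a42 and Slc25a37 under the fit reported here and 21 alternatives, 1 row each, with a dashed line at 0.05. Slc25a42 lies between 0.0273 and 0.130 and left of the line in 6 alternatives, Slc25a37 left of it only without control replicate 6 (0.0250).

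The promoters of these 2 genes are shown because theirs are the only members whose diets were apart on every array, each as the 250 bases before the RefSeq start of the gene (build GRCr8), written 5′ to 3′ on the strand of the gene. The Slc25a42 window is chr16:19247724-19247973 and the Slc25a38 window chr8:128712930-128713179, both on the plus strand. Capitals mark matches, on either strand, to the CCAAT box (CCAAT, or ATTGG where it lies on the opposite strand), the TATA box (TATAAA) and the letters CCGGAAG, which the ETS factor GABP of mitochondrial gene promoters binds.
Slc25a42: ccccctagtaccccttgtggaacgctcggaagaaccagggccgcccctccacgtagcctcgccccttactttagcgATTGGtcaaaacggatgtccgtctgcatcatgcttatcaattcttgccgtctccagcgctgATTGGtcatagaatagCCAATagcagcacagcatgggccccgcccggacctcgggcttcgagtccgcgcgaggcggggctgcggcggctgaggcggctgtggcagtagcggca
Slc25a38: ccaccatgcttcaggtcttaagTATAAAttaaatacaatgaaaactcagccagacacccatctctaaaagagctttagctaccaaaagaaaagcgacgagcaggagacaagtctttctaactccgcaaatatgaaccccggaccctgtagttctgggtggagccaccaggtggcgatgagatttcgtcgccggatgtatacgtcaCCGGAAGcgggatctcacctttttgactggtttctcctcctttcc
The Slc25a42 window held 3 CCAAT matches, at 174, 113 and 97 bases before the start, and the Slc25a38 window held CCGGAAG at 45 bases and TATAAA at 228 bases before it. None of these matches overlapped another.

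Over the family the same letters were searched in the 39 members with such a window and in 27457 windows of all genes. CCAAT was present in 20 of 39 member windows (51.3%) and in 34.3% of all windows, CCGGAAG in 6 (15.4%) and in 7.74%, and the E-box CACGTG in 4 (10.3%) and in 5.79%. TATAAA was rarer, in 2 member windows (5.13%, those of Slc25a38 and Ucp1) and in 13.1% of all windows. The NRF1 motif, GCGC and TGCGC with 1 base between them, which a general activator of respiratory genes binds, stood in 0 of 39 and in 4.17% of all windows, and the direct repeat that PPAR receptors bind, AGGTCA and AGGTCA with 1 base between them, in 0 of 39 and in 0.0546% of all windows. The windows of all genes were not limited to genes measured on the arrays or to any type of gene. Member windows were richer in G and C, with a median of 58.4% against 52.0% in all windows. What part this content or the choice of windows has in the shares was not tested. A match describes letters in these windows and does not show a bound site.

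Among the carriers of amino acids, 9 were measured, 0 passed and 2 had an unadjusted p below 0.05. Besides Slc25a38 this was Slc25a13, or citrin, the aspartate and glutamate carrier of liver that feeds both the malate-aspartate shuttle and the urea cycle. Citrin had 9.81, 9.975 and 10.08 (lowest, median and highest) in PSC arrays and 9.65, 9.805 and 9.88 in control arrays, with 5 of 6 PSC arrays above every control. The log2 fold change was 0.17 (SE 0.06, adjusted p = 0.149). Slc25a12, its counterpart in muscle and brain, had a value of the opposite sign, -0.11 (95% interval -0.23 to 0.0049).

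Slc25a44, a carrier of branched-chain amino acids, had the lowest value of that group at -0.14 (SE 0.07, adjusted p = 0.283), with 4 of 6 PSC arrays below every control. Slc25a15, which brings ornithine into the matrix for the urea cycle, had -0.13 (95% interval -0.325 to 0.065). Values of the other amino acid carriers, Slc25a2, Slc25a18, Slc25a22 and Slc25a29, lay between -0.11 and 0.09.

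Iron and glutathione carriers, 4 genes of which 0 passed, included both mitoferrins, the importers of iron for heme and iron-sulfur clusters. Their values had opposite signs. Slc25a37, mitoferrin-1 of blood-forming cells, had 5.37, 5.52 and 5.61 in PSC arrays and 4.97, 5.135 and 5.81 in control arrays (lowest, median and highest). Every PSC array lay above the control median, but control replicate 6, at 5.81, was above all of them. The log2 fold change was 0.27 (SE 0.12, adjusted p = 0.220), and without control replicate 6 it was 0.39 with an adjusted p of 0.0250, the only one of the 12 fits without 1 array in which this gene passed.

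Slc25a28, mitoferrin-2 of other tissues, had 6.21, 6.335 and 6.46 in PSC arrays and 6.36, 6.455 and 6.71 in control arrays. Here 4 of 6 PSC arrays lay below every control, and the log2 fold change was -0.17 (SE 0.07, adjusted p = 0.220). Of 4 measured red cell markers 0 passed, and their average was 5.32 to 5.73 in PSC arrays and 5.42 to 6.08 in control arrays, all 4 with negative differences. Of the markers of macrophages, which recycle iron, 1 of 8 rose, with the overlapping list averages given above, and their part in the Slc25a37 value was not tested. Slc25a39 and Slc25a40, which bring glutathione into the matrix, had 0.12 (adjusted p = 0.444) and 0.09 (adjusted p = 0.591). RefSeq lists 8 pseudogenes of Slc25a39 and 1 of Slc25a38. Among members of other groups it lists 2 of Slc25a3 and 1 each of Slc25a4, Slc25a13, Slc25a15, Slc25a21, Slc25a31, Slc25a33 and Slc25a36. Whether probes also read any of these copies was not tested.

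Slc25a20, the exchanger that takes acylcarnitines into the matrix for oxidation, had 8.94, 9.015 and 9.15 in PSC arrays and 9.06, 9.16 and 9.31 in control arrays. The ranges overlapped, 3 of 6 PSC arrays lay below every control, and all 6 lay below the control median. Its log2 fold change was -0.15 (SE 0.07, 95% interval -0.29 to -0.01, adjusted p = 0.225).

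**Figure D3:**
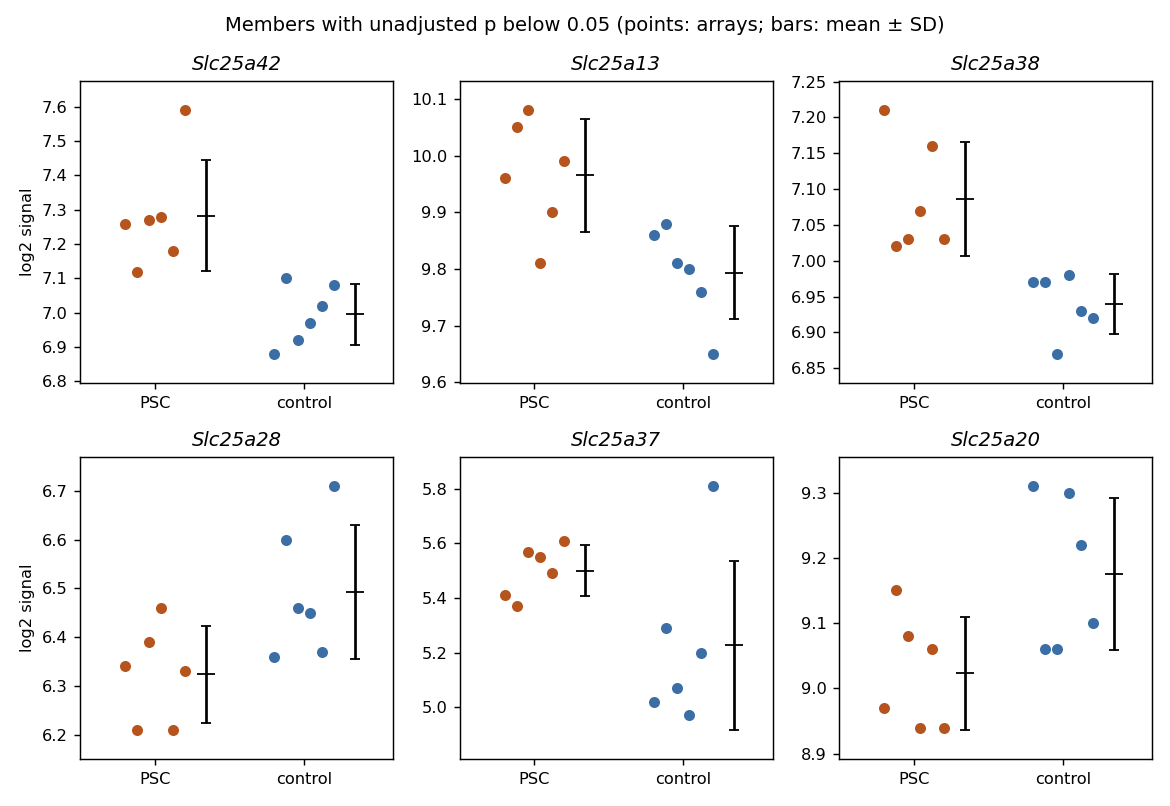
Log2 signal in each of the 12 arrays for the 6 carrier genes with an unadjusted p below 0.05, with PSC arrays on the left of each panel and control arrays on the right. Bars give the mean ± SD (n = 6 per diet), and each panel has its own axis. The diets are apart on every array for Slc25a42 and Slc25a38, and control replicate 6 of Slc25a37 sits at 5.81.

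Carriers of adenine nucleotides and phosphate had 7 measured genes, of which 0 passed and 0 had an unadjusted p below 0.05. Slc25a3, which supplies phosphate to ATP synthase, had a difference of -0.03 (95% interval -0.16 to 0.09). Slc25a4, the ADP and ATP exchanger of heart and muscle, was read by 2 clusters, which gave -0.08 and -0.085 (95% interval -0.23 to 0.07 and -0.22 to 0.05 in a fit over all clusters). The ATP-magnesium and phosphate carriers, which adjust the nucleotide pool of the matrix, had values of both signs: Slc25a25 had 0.23, Slc25a41 had 0.16, Slc25a23 had -0.12 and Slc25a24 had -0.19, with adjusted p from 0.283 to 0.425. For Slc25a25 PSC replicate 6 stood at 8.85 and the other PSC arrays at 7.88 to 8.21, and without that array the value was 0.08. Slc25a31, a carrier of germ cells, had signals of 2.17 to 2.61 over all 12 arrays.

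Dicarboxylate and tricarboxylate carriers, 4 genes, also had 0 that passed. Slc25a1, which exports citrate for fatty acid and sterol synthesis, had 8.85, 9.095 and 9.21 in PSC arrays and 8.91, 9.03 and 9.21 in control arrays. Its difference of 0.015 had a 95% interval of -0.14 to 0.17. Slc25a11, the oxoglutarate and malate exchanger of the malate-aspartate shuttle, had 0.05 (-0.10 to 0.20), and Slc25a10, which exchanges malate or succinate for phosphate, had -0.10 (-0.28 to 0.08). Slc25a21, a carrier of oxoadipate from lysine breakdown, had the lowest value of all 46 members at -0.20 (-0.44 to 0.05). In Slc25a21 the PSC arrays ran from 3.84 to 4.69 and the controls from 4.43 to 4.71. Without PSC replicate 5, its lowest array, the value was -0.10, and that of Slc25a24, at -0.185, was then lower.

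In the group of uncoupling proteins and relatives 0 of 6 passed. Ucp2, the form found widely in tissues, had 0.03 (95% interval -0.15 to 0.22), Ucp3, the form of muscle, -0.05 (-0.21 to 0.10), and Ucp1, the heat-making form of brown fat, 0.07 (-0.12 to 0.26). The files give no detection calls, so signals of Ucp1, 2.81 to 3.34 over the 12 arrays, do not show whether its transcript was present. The brain forms Slc25a14 and Slc25a27 had -0.01 and -0.09. Of 7 adipocyte markers 2 fell, Cidea (-1.07) and Fabp4 (-1.50). The other 5 had positive values that did not pass, from 0.035 for Retn and 0.07 for Adipoq, which defines fat cells, to 0.165 for Lep and 0.325 for Cfd (adjusted p = 0.0644), and the list median was 0.04. The list average was 4.85 to 5.24 in PSC arrays and 5.28 to 5.40 in control arrays. Of 5 skeletal muscle markers 0 passed.

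Slc25a30, the kidney mitochondrial carrier protein and a relative of the uncoupling proteins, varied far more between rats than other members. From lowest to highest it had 7.51, 8.17, 8.55, 8.95, 9.32 and 9.81 in PSC arrays and 7.11, 7.37, 7.61, 8.13, 8.43 and 9.32 in control arrays. The diets overlapped over most of their range, with 5 of 6 PSC arrays above the control median. The difference was 0.72 (SE 0.39, 95% interval -0.11 to 1.56, adjusted p = 0.330). It reached 0.97 without PSC replicate 1 and 0.99 without control replicate 5, with adjusted p of 0.180 and 0.160, and was 0.48 with array weights.

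The pooled SD of Slc25a30 within diets was 0.82, where the median member had 0.14 and the median of all genes was 0.14, and 99.95% of all genes had a smaller SD. In both diets its values spanned more than 2 log2 units, so that rats of 1 diet differed by more than 4-fold in signal. Slc25a52 followed with an SD of 0.51, then Slc25a25 and Slc25a47 with 0.29 each. PSC replicates 2 and 5 were the 2 highest of their diet in both Slc25a30 and Slc25a52, but control replicate 5, the highest control in Slc25a30, was not the highest in Slc25a52.

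**Figure D4:**
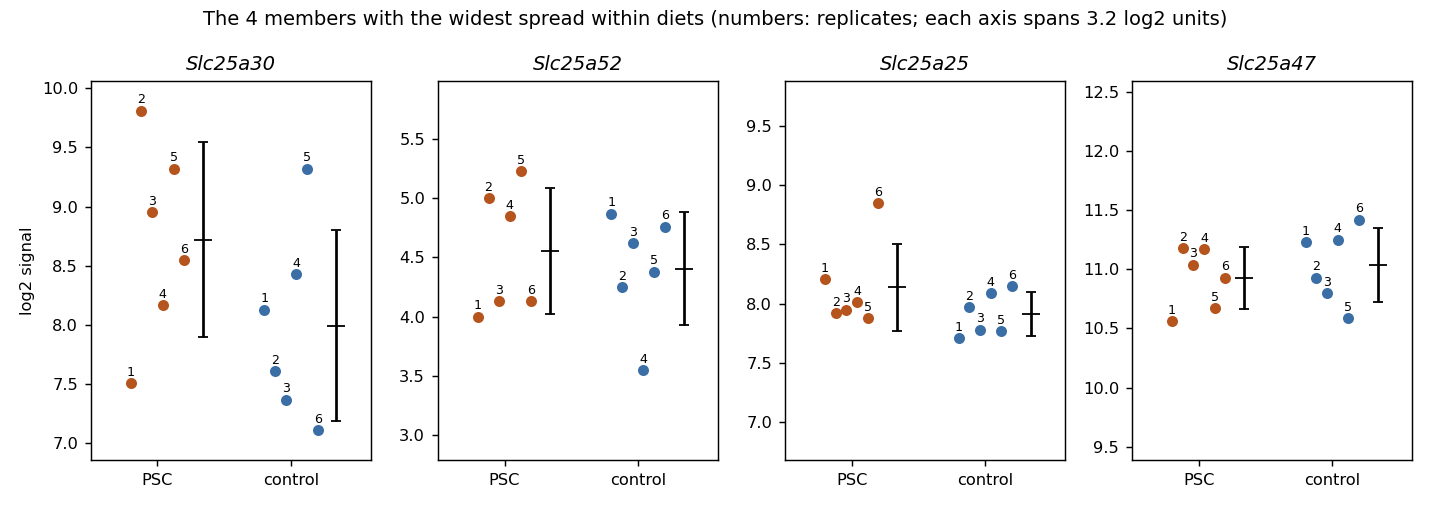
Log2 signal by array of the 4 carrier genes with the widest spread within diets, with PSC arrays on the left and control arrays on the right of each panel. Numbers are replicates, bars the mean ± SD (n = 6 per diet), and all axes span the same number of log2 units. Slc25a30 runs from 7.11 to 9.81 over both diets, and in Slc25a25 PSC replicate 6 stands alone at 8.85.

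Carriers of cofactors and nucleotides, 9 genes with 0 that passed, had 8 values above 0, led by Slc25a42, of which 3 turned negative when arrays were centred on their medians (Slc25a17, Slc25a33 and Slc25a36). Slc25a51, the importer of NAD, had 0.10 (95% interval -0.10 to 0.31), Slc25a16, linked to coenzyme A supply, 0.085 (-0.085 to 0.255), and Slc25a32, which carries folate and FAD, 0.05 (-0.16 to 0.26). Slc25a17, a carrier of the peroxisome that moves coenzyme A and nucleotide cofactors, had 0.04 (-0.10 to 0.18). Slc25a26, the importer of the methyl donor S-adenosylmethionine, had the single negative value, -0.07 (-0.22 to 0.08). The pyrimidine nucleotide carriers Slc25a33 and Slc25a36 had 0.02 (-0.11 to 0.15) and 0.025 (-0.18 to 0.23). Slc25a52, a close relative of Slc25a51, had 4.00, 4.49 and 5.23 in PSC arrays and 3.55, 4.5 and 4.87 in control arrays, and its difference of 0.15 had an interval of -0.37 to 0.67.

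Members whose substrate is unsettled numbered 6, and 0 passed. Slc25a47, a carrier made mainly in liver, had 10.56, 10.985 and 11.18 in PSC arrays and 10.59, 11.08 and 11.42 in control arrays, a difference of -0.11 (95% interval -0.42 to 0.20). Slc25a46, an atypical member that sits in the outer membrane and takes part in mitochondrial fission, had 0.04 (-0.09 to 0.17), a value that turned negative with arrays centred on their medians. The other 4, Slc25a34, Slc25a35, Slc25a45 and Slc25a54, lay between -0.13 and 0.12.

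The enzymes, transporters and regulators that work with the carriers were taken as 8 lists. Of 79 measured genes 3 rose and 2 fell, against 0.716% and 1.89% of all genes. In the carnitine list of 7 genes only Cpt1a passed. Cpt1a, which makes the acylcarnitines that Slc25a20 transports, had 9.86, 10.235 and 10.44 in PSC arrays and 8.41, 9.57 and 9.76 in control arrays, a rise of 0.81 (SE 0.19, adjusted p = 0.0374). The other 6 genes of that list had negative values that did not pass, Bbox1 of carnitine synthesis among them with -0.105.

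Among regulators of mitochondrial genes, 2 of 12 rose and 1 fell. Ppara, the receptor that turns on fatty acid oxidation, had 9.07, 9.35 and 9.51 in PSC arrays and 8.63, 8.945 and 9.09 in control arrays (log2 fold change 0.41, adjusted p = 0.0345), and the lipogenic factor Srebf1 also rose (0.72, adjusted p = 0.0228). Ppargc1a, a coactivator of mitochondrial biogenesis, had 4.83, 5.085 and 5.33 in PSC arrays and 5.31, 5.53 and 5.79 in control arrays, and fell by 0.48 (adjusted p = 0.0247). These 3 regulators passed while 0 of the 46 carriers did. The difference between them was not tested.

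Of 14 other mitochondrial transporters 1 fell, Sfxn3, a member of the sideroflexins, which include carriers of serine. It had 5.72, 5.86 and 5.97 in PSC arrays and 6.04, 6.10 and 6.28 in control arrays, with no overlap (log2 fold change -0.27, SE 0.06, adjusted p = 0.0374). Vdac3, a pore of the outer membrane, also did not overlap but did not pass (-0.155, adjusted p = 0.108). In the import machinery that inserts carriers into the inner membrane 0 of 13 passed, with Timm10b at -0.37 (SE 0.11, adjusted p = 0.0774) and Tomm40 at -0.20. Of 15 respiratory chain and mass genes 0 passed and the median was 0.02, with Cycs (cytochrome c) at -0.21 and Cox4i1 at 0.11.

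In the urea cycle list, the partners of Slc25a13 and Slc25a15, 0 of 7 passed. Oat, which turns ornithine into glutamate semialdehyde, had 0.85 (SE 0.26, adjusted p = 0.0884), and Otc, which uses the ornithine that Slc25a15 brings in, 0.24 (SE 0.07, adjusted p = 0.0919). Among shuttle enzymes 0 of 6 passed, with the cytosolic malate dehydrogenase Mdh1 at 0.18 (adjusted p = 0.135) and Gpd2, of the glycerol phosphate shuttle, at -0.215. Among partners of citrate export 0 of 6 passed, with citrate synthase, Cs, at -0.16 (adjusted p = 0.125) and Acss2, which makes acetyl-CoA from acetate, at -0.24. The count of 5 partners that passed depended on single arrays. It was 0 without control replicate 1 or control replicate 4, and 1 without PSC replicate 5, PSC replicate 6 or control replicate 3. It was 2 without PSC replicate 1 or control replicate 6, 3 without control replicate 5, and 8 without PSC replicate 4. Of the 12 fits without 1 array, Cpt1a, Sfxn3 and Ppara each missed the threshold in 8, Ppargc1a in 5 and Srebf1 in 4, with adjusted p of at most 0.0847. Under other processing Cpt1a also missed it in 4 fits (all clusters tested, array weights, the replicate block and the trended variance prior). Sfxn3 missed it in 3 (all clusters tested, a second quantile normalization and the block), Ppara in 1 (all clusters tested) and Srebf1 in 1 (the block).

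**Figure D5:**
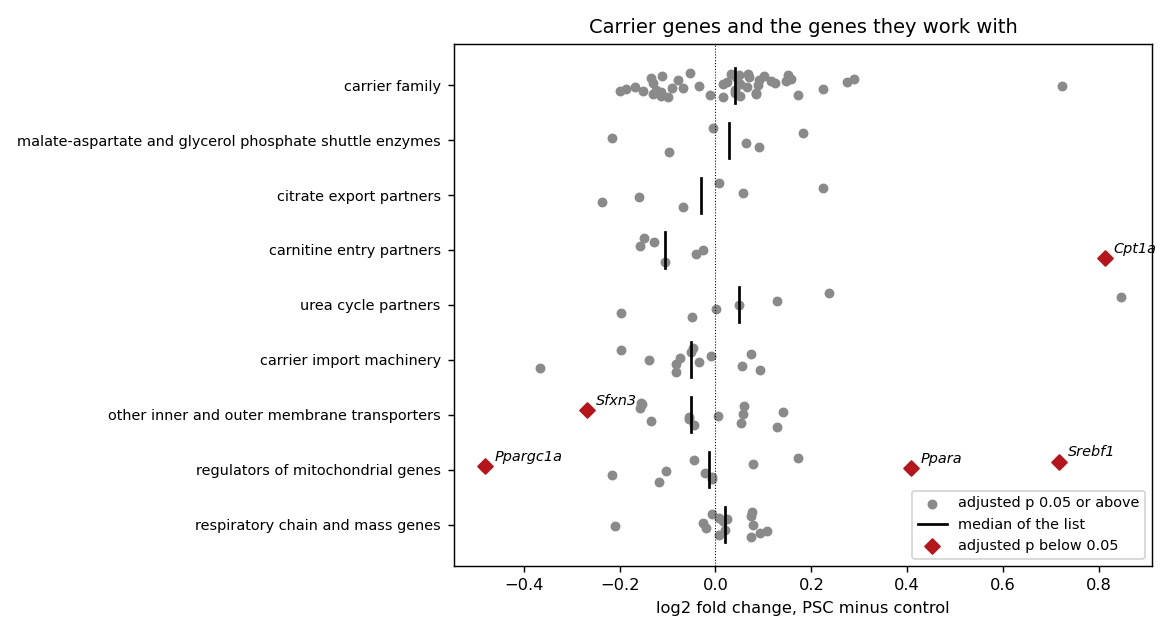
Log2 fold change (PSC minus control) of the 46 carrier genes and of the 8 lists of genes that work with them, 1 point per gene and a vertical line at each median. Diamonds mark genes with an adjusted p below 0.05, which are Cpt1a, Sfxn3, Ppargc1a, Ppara and Srebf1. No carrier gene is among them.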

How the data were processed

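Liver RNA of 12 rats was hybridised to 12 arrays, 6 per diet. Each deposited value is a transcript cluster's log2 signal. Affymetrix Expression Console and RMA are the tools in the submitters' processing notes. RMA corrects background, quantile normalizes and summarises probes, which compresses small changes of dim genes. Software versions, filters and detection calls: not given in the sources used here. Values were used as deposited. Of 30347 clusters, 18511 have 1 gene symbol in the platform annotation, 575 several and 11261 none, and the brightest cluster of each gene was kept.

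Diets were compared with limma 3.58.1 (R 4.3.3), two-sided, adjusted by Benjamini-Hochberg over 18166 genes. On simulated data of these genes the fit found 90% of 100 genes given a log2 change of 0.5 and 100% of 100 given a change of 1, and 16 of 206 calls fell on unchanged genes. The noise was drawn as independent normal values with the model's own SD per gene, so real noise may lower these shares. Smaller changes were not simulated, so the run does not show what share is found at the members' median size of 0.10. Members, role groups and lists were chosen with earlier results of these data known.

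Members were named where the unadjusted p was below 0.05, where the diets did not overlap, or where a member had the smallest p, the highest mean, or the highest or lowest difference of its role group, or the highest or lowest mean of all. Partners were named where they passed or had one of the 2 smallest p of their list. Members outside this rule are given for completeness and were named after their values were seen. The fold bounds set against the intervals were also chosen after the values were seen.

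Alternatives were all clusters, brighter genes only, 3 other normalizations, array weights, a trended variance prior, averaged clusters per gene, a block for the replicate number, a threshold of 0.1 and leaving out each array. No batch is named in the labels. Promoter windows come from RefSeq (GRCr8). The genome build behind the array (not given in the sources used here) may differ, so gene coordinates are not set against probes. Figures were drawn with matplotlib 3.10.9.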

Additional observations from a re-analysis of the deposited data

Results flagged for a closer look

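In 6 of 92 combinations of carrier gene and diet, 1 array stood apart from the other 5 by a gap above the critical share of the range (Dixon's 95% critical value for 6 arrays). Chance gives about 1 in 20, or 4.6 of 92. PSC replicate 6 accounted for 3 of them: it was highest in Slc25a25 (8.85, next 8.21) and Slc25a42 (7.59, next 7.28), and lowest in Slc25a44 (7.63, next 7.87). Among controls, replicate 1 was lowest in Slc25a14 (4.96, next 5.24), replicate 2 was highest in Slc25a32 (6.89, next 6.59), and replicate 2 was lowest in Slc25a4 (5.82, next 6.01). Without PSC replicate 6 the Slc25a42 log2 fold change was 0.23 and its adjusted p 0.0875.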

How the results depend on the processing

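The count of 0 carrier genes that passed became 1, in each case Slc25a42, with array weights, cyclic loess, a second quantile normalization, a variance prior with trend and robust moderation, genes brighter than the median gene alone, and a threshold of 0.1. It ran from 0 to 1 when 1 array was left out, as Slc25a42 passed without PSC replicate 2 and Slc25a37 without control replicate 6. Members at an unadjusted p below 0.05 numbered 4 to 8 when 1 array was left out. Members without overlap were 2 to 3 then, and 0 with arrays centred on their medians. The median log2 fold change of members ran from 0.01 to 0.05 without 1 array and was -0.0050 with centred arrays, where that of all genes was -0.03. Of 46 members 35 kept their sign in every alternative fit that held them, 23 of these over 21 fits and 12 dimmer ones over 20, without the fit of brighter genes. Those that did not include Slc25a1, which turned in 6 fits, Slc25a36 in 6 and Slc25a14 in 4. Partners that passed, 5, became 2 with all clusters tested, 8 with brighter genes only and 2 with the replicate number as a block, and ran from 0 to 8 without 1 array.

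Same-numbered arrays of the diets did not pair: their deviations correlated at -0.15 to 0.11, and 1 of 6 PSC arrays correlated best with its own number. With the replicate block 0 carrier genes passed and 94 genes in all, where 473 passed without it. With no detection calls dim members cannot be called present or absent.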

Other observations

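Bright and dim genes differed in sign across the array. Of the 29 members brighter than the median gene, 17 had positive values and the median log2 fold change was 0.03, while the 9083 genes of that brightness had a median of -0.03 and 3491 positive values. Of the 17 dimmer members, 11 had positive values with a median of 0.065, and the dimmer genes overall had a median of 0.06. The difference between members and other genes was not tested.

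Some carriers are neighbours on the chromosome, with 0 protein-coding genes between them in the RefSeq assembly GRCr8, and 4 such pairs were found. In each pair the 2 values had opposite signs and no gene passed. Slc25a23 and Slc25a41, both ATP-magnesium and phosphate carriers on chromosome 9, had -0.12 and 0.16. Slc25a24 and Slc25a54 on chromosome 2 had -0.19 and 0.05, Slc25a29 and Slc25a47 on chromosome 6 had 0.065 and -0.11, and Ucp2 and Ucp3 on chromosome 1 had 0.03 and -0.05. The values of Slc25a54 and Ucp2 changed sign under other settings, with cyclic loess for Slc25a54, and with median centring or without control replicate 2 for Ucp2.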
